A study of Mus musculus with 19 samples.

Results

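The Hox genes are 39 of the 23284 genes in each of the 2 deposited tables, and were chosen by symbol alone, as Hox followed by a cluster letter from a to d and a number from 1 to 13. In the mouse they lie in 4 clusters, of 11 genes in HoxA on chromosome 6, 10 in HoxB on chromosome 11, 9 in HoxC on chromosome 15 and 9 in HoxD on chromosome 2 (mm9). The 4 clusters span 106, 174, 116 and 96.8 kb of the mm9 sequence. Genes that share a number in different clusters descend from 1 ancestral gene and form a paralog group.

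Hox genes encode homeodomain transcription factors that give cells their position along the body axis, and low paralog numbers act towards the head, high numbers towards the tail. The same clusters pattern the limb from shoulder to digit. Once set, the pattern of expressed Hox genes is kept through many cell divisions, with Trithorax proteins holding genes on and Polycomb proteins holding genes off. In the prostate, which buds from the urogenital sinus near the tail end of the embryo, Hoxa13, Hoxb13 and Hoxd13 are known for roles in the growth and branching of the gland, and Hoxb13 marks its luminal epithelium.

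RNA-seq was performed on 19 samples of C57BL/6 background. Mouse embryonic fibroblasts (MEFs, n = 6) came from E13.5 embryos and were heterozygous for a LacZ knock-in allele. According to the methods they were grown from limbs, pooled over male and female littermates, and depleted of blood, endothelial and epithelial cells. Wild-type prostate tissue (n = 6) was taken at 6 weeks of age. Renal grafts (n = 7) were grown for 6 weeks in male nude mice from induced epithelial (iEpt) cells, which are fibroblasts converted by expression of OCT4, SOX2, KLF4 and c-MYC in epithelial medium, recombined with embryonic rat urogenital mesenchyme. The 5 grafts of the first table are iEpt+NAF grafts by the study's supplement, with 3 prostate master regulators, Foxa1 among them, delivered to the iEpt cells by lentivirus. The labels give all 7 grafts 1 description, and the other 2, FS022 and FS023 in the second table, are iEpt only grafts by elimination. A graft therefore held mouse cells of the iEpt line, rat mesenchyme and host tissue at the kidney, and reads of rat origin were not told apart here from mouse reads.

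All levels below are the deposited values, on a log2 scale after variance stabilization. At high values a difference of 1 means 2 times the normalized read count. At values of a few reads this does not hold, as 0 reads correspond to -0.31 and low values carry added scatter. An estimated 16767287 to 26152339 reads fell on genes in the samples of the first table, and 6629663 and 9662056 in FS022 and FS023. A count of 3 reads corresponds to a value between 1.68 and 2.34 in the first table, 3.12 in FS022 and 2.70 in FS023, and values at or below it are said to be at the floor. The 6 MEF samples formed 3 pairs, FS015 with FS020, FS016 with FS019 and FS017 with FS018, whose deviations from the MEF mean correlated at 0.896, 0.844 and 0.915 over 11803 genes, while no MEF sample correlated above -0.296 with a sample outside its pair. No value was identical within a pair, and the variance was 5.47 to 31.6 times that of sampling noise within pairs, against 304 to 472 times between pairs. Neither observation shows that samples of a pair are independent. All 6 were kept, so p-values against the MEFs may be too small if the pairs are the independent units. Results are also given for 3 pair means where these differ. FS015 to FS018 held transcripts of prostate secretory genes, with Pbsn, which encodes probasin, at 0.0453 to 0.178% of its prostate mean, against at most 8.21e-05% in FS019 and FS020.

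Members of a paralog group differ in sequence most outside the homeodomain, the stretch that binds DNA. Shown here, because the results turn on these genes, are the 30 coding bases that open with the tryptophan codon of the recognition helix, read from mm9, with capitals for bases that differ from Hoxb13:
Hoxb13: tggtttcagaaccgccgggtcaaggagaag
Hoxa13: tggttCcagaacAgGAgggtcaaAgagaaA
Hoxc13: tggttCcagaaTcgAcgCgtGaaAgagaaA
Hoxd13: tggtttcagaaTcgAAgggtGaaggaCaag
These lie at chr11:96057475-96057504 on the plus strand, chr6:52208936-52208965 on the minus strand, chr15:102757782-102757811 on the plus strand and chr2:74508128-74508157 on the plus strand, each in the last exon of the gene. Over this window 24 of 30 bases in Hoxa13, 23 in Hoxc13 and 25 in Hoxd13 equalled Hoxb13, and over the 180 bases of the homeobox the identity with Hoxb13 was 68.9, 73.9 and 67.2%.

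Hoxb13 stood far higher in the prostate than in any other sample. Its value was 12.52 at the lowest, 12.90 at the median and 13.35 at the highest of 6 prostate samples, against 1.29, 3.49 and 4.67 in the MEFs. The 5 iEpt+NAF grafts had Hoxb13 values of 4.86 in FS002, 6.99 in FS003, 4.59 in FS005, 4.61 in FS007 and 1.8 in FS008, the last at the floor. Each of the 5 lay below the lowest prostate sample, and FS003 and FS002 were the grafts above the highest MEF sample. The prostate mean exceeded the MEF mean by 9.58 (SE 0.47, limma adjusted p = 8e-10) and the graft mean by 8.34 (SE 0.67, limma adjusted p = 2.93e-06). The graft mean of 4.57 ± 1.85 (SD, n = 5) lay 1.23 above the MEF mean of 3.34 ± 1.25 (SD, n = 6) with an SE of 0.88, which did not pass the test (limma adjusted p = 0.233), passed it without FS008 at 1.93 (limma adjusted p = 0.0406), and turned to -1.0 after quantile normalization.

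As a share of the prostate mean on the linear scale, Hoxb13 reached 1.60% in FS003 and 0.0262 to 0.352% in the other 4 grafts. Over these iEpt+NAF grafts the secretory genes Pbsn, Sbp and Tgm4 stood at 0.0145 to 0.152%, 0.0118 to 0.17% and 0.0541 to 0.254%. Msmb, Spink3 and Azgp1 stood at 0.0017 to 0.401%, 0.0997 to 1.49% and 0.439 to 6.14%. In the MEFs that held prostate transcripts the share of Hoxb13 was 0.227% in FS015, where the 6 prostate secretory genes stood at 0.178 to 0.236% of their own prostate means. In FS017 and FS018 Hoxb13 stood at 0.306 and 0.192%, above the 0.0441 to 0.125% and 0.0276 to 0.0916% of the secretory genes there, and in FS016 at 0.0776% against 0.0401 to 0.114%. In FS019 and FS020, where Pbsn was at most 8.21e-05% and Tgm4 at 0.0448 and 0.0398%, Hoxb13 stood at 0.0141 and 0.0697%. Its value was at the floor in FS019 and above it, at 2.80, in FS020. The part of prostate transcripts in the MEF level of Hoxb13 was not tested.

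Hoxa13, known for its part in the digits and the urogenital tract, followed the order prostate, MEF, graft. Its values were 8.05, 8.42 and 8.55 at the lowest, median and highest in the prostate and 6.00, 7.50 and 7.77 in the MEFs. The grafts had Hoxa13 at 5.86, 6.38, 6.33, 6.25 and 4.60 in FS002, FS003, FS005, FS007 and FS008. Every prostate sample lay above every MEF and graft sample, by 1.25 (SE 0.30, limma adjusted p = 0.00197) on average over the MEFs and 2.47 (SE 0.30, limma adjusted p = 4.72e-05) over the grafts. The grafts were lower than the MEFs by -1.22 (SE 0.44, limma adjusted p = 0.029), a call that was lost when any 1 of FS002, FS008, FS016, FS017, FS018 or FS019 was left out, with adjusted p between 0.0506 and 0.0627, and with MEF pair means (adjusted p = 0.0961).

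Hoxd13, the HoxD gene nearest the tail end and a driver of digit formation, was highest in the MEFs rather than in the prostate. Its values ran from 9.85 over a median of 11.26 to 11.58 in the MEFs and from 9.68 over 10.14 to 10.46 in the prostate, and the ranges overlapped. The prostate lay -0.81 (SE 0.31) from the MEFs, short of the 1 required for a call, while the limma adjusted p was 0.0277. Without FS020 the difference was -1.02 and was called (adjusted p = 0.00319). The grafts held Hoxd13 at 8.05, 8.74, 8.86, 8.48 and 4.19, all below both other groups. They were lower than the MEFs by -3.26 (SE 0.78, limma adjusted p = 0.00339), and the prostate was higher than the grafts by 2.46 (SE 0.72, limma adjusted p = 0.0129). FS008 alone stood at 4.19, and both calls remained when any 1 sample was left out.

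Hoxc13, known from hair follicles and nails, was highest in the MEFs and not detected in the prostate. Its MEF values were 3.60, 4.74 and 7.41 at the lowest, median and highest, the highest in FS017 and FS018. The grafts had Hoxc13 at 2.65, 2.06, 1.07, 2.05 and -1.42, and 3 of 5 lay above the floor. All 6 prostate values of Hoxc13 were at the floor, between -0.96 and 0.96. Against the floor, the MEF mean was at least 3.02 higher than the prostate, and the grafts were lower than the MEFs by -4.08 (SE 0.90, limma adjusted p = 0.00203).

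**Figure D1:**
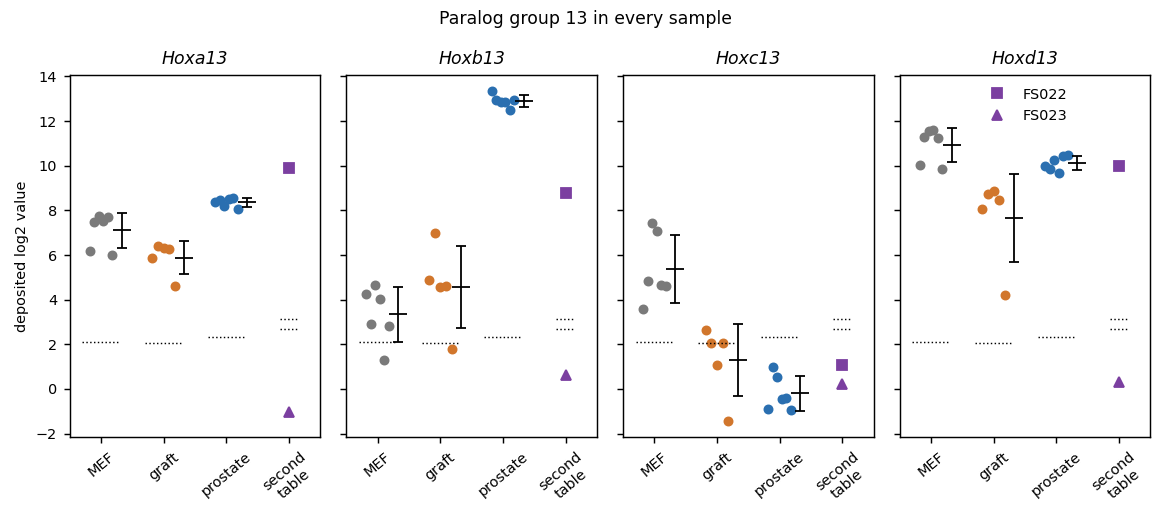
Deposited log2 values of Hoxa13, Hoxb13, Hoxc13 and Hoxd13 in the 6 MEF samples, 5 renal grafts of the first table, 6 prostate samples and the 2 grafts of the second table (square FS022, triangle FS023). Dots are samples, black bars are group means ± SD, and dotted lines mark the highest value that 3 reads give in a group; Hoxb13 sits between 12.52 and 13.35 in the prostate and at or below 6.99 in the MEFs and grafts of the first table.

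To ask how the Hox pattern of the prostate differs from that of the fibroblasts, prostate and MEF samples were compared over the 14560 genes whose linear values averaged 10 or more. A gene was called at a limma adjusted p under 0.05 and an absolute log2 difference of at least 1. Of the 35 Hox genes tested, 7 were higher and 16 lower in the prostate, or 65.7% called, against 48.3% of all genes (27.8% higher and 20.5% lower). The median difference over the 35 was -0.81, against 0.171 over all genes. By the exact two-sided permutation test over samples, 24 of the 35 had an unadjusted p under 0.05, against 81.4% of all genes, and 21 an adjusted p under 0.05, against 80.0%. The groups did not overlap in 5 higher and 12 lower Hox genes, against 37.4% and 29.3% of all genes tested.

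HoxC accounted for 7 of the 16 lower genes, and every member tested was among them. HoxC values in the prostate were at or near the floor. A HoxC gene could thus pass the filter only through its MEF level, which largely fixed that count in advance. Hoxc4, Hoxc5, Hoxc6, Hoxc8, Hoxc9, Hoxc10 and Hoxc13 differed by -7.27 to -4.76, with a median of -5.51, or -4.76 with 4 of them set at their lower bound. Hoxc4, Hoxc8 and Hoxc10 each had 1 of 6 prostate values above the floor, so the sizes of their differences are imprecise as well. None of the 9 HoxC genes was above the floor in FS009, FS011 or FS014, and 1 of 9 was in each of FS010, FS012 and FS013, while 8 or 9 of 9 were in every MEF sample. Hoxc8, a gene of the thoracic region, had prostate values of -0.68, -0.57 and 2.57 at the lowest, median and highest, against 4.86, 8.50 and 8.79 in the MEFs. The groups lay wholly apart, with a difference of means of -7.27 (SE 0.84, limma adjusted p = 2.95e-06) that rests largely on prostate values at the floor. Hoxc4, the most anterior gene of the cluster, differed by -4.76 (SE 0.82, limma adjusted p = 1.25e-04), from prostate values of -2.15, 1.45 and 2.60 and MEF values of 3.62, 6.57 and 6.95. All 9 epithelial markers were higher in the prostate than in the MEFs, against 27.8% of all genes. Their summed log2 levels were 15.5 to 15.8 against 6.03 to 8.76. Of 10 fibroblast markers 7 were lower, against 20.5% of all genes, with sums of 14.55 to 15.93 against 18.73 to 19.24. The part of this change in cell types in the Hox differences was not tested. Hoxc11 and Hoxc12 were too low over both groups to be tested, and all 6 prostate values of each were at the floor.

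In HoxA most genes of paralog number 7 or less were lower in the prostate, and no gene above 7 was. Hoxa2, Hoxa4, Hoxa5, Hoxa6 and Hoxa7 were among the lower genes, Hoxa10 and Hoxa13 were higher, and Hoxa3, Hoxa9 and Hoxa11 were not called. Hoxa10, known for its role in the uterus and the male accessory glands, was the highest HoxA gene of the prostate at 10.63 ± 0.14 (SD, n = 6) and exceeded the MEFs by 1.03 (SE 0.19, limma adjusted p = 1.82e-04). That call sat at the required difference of 1 and was lost without FS014, FS015 or FS020, where the difference was 0.93 to 0.99. The calls of Hoxa2 (without FS015 or FS020, adjusted p = 0.0514 and 0.0521) and of Hoxa5 (without FS012, FS015, FS016, FS019 or FS020, adjusted p from 0.059 to 0.0612) were lost in the same way.

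HoxB held 3 higher genes, Hoxb5, Hoxb9 and Hoxb13, and 1 lower gene, Hoxb2, while 5 were not called and Hoxb1 was not tested. Hoxb9, a gene of the trunk also expressed in urogenital tissue, stood at 10.11 ± 0.59 (SD, n = 6) in the prostate and 8.89 ± 1.08 (SD, n = 6) in the MEFs. Its difference of 1.22 (SE 0.45, limma adjusted p = 0.0229) lost its call without FS017 or FS018 (adjusted p = 0.0526 and 0.05). Hoxb2, a gene of the hindbrain, had prostate values of 4.13, 4.79 and 5.21 and MEF values of 4.25, 6.75 and 7.74, which overlapped, and differed by -1.59 (SE 0.56, limma adjusted p = 0.0194). The MEF spread of Hoxb2 to Hoxb8 was wide, with SDs of 1.45 to 1.91, and FS017 and FS018 held each of them lower than the other 4 samples.

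HoxD split as well, with Hoxd4 and Hoxd9 higher in the prostate and Hoxd11 and Hoxd12 lower. Hoxd4 rose by 2.31 (SE 0.29, limma adjusted p = 6.28e-06), from 4.13, 5.18 and 5.65 at the lowest, median and highest MEF to 6.73, 7.39 and 8.01 in the prostate. Hoxd12, active in the hand and foot, was lower by -2.01 (SE 0.25, limma adjusted p = 5.69e-06), at 5.18, 5.99 and 6.22 in the prostate and 7.41, 7.65 and 8.58 in the MEFs. Neither pair of ranges overlapped. The call of Hoxd9 at 1.10 was lost without FS020 (0.97, limma adjusted p = 7.75e-04). Hoxd3, Hoxd8, Hoxd10 and Hoxd13 were not called, and Hoxd1 was near the floor in all 3 groups and entered no test.

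**Figure D2:**
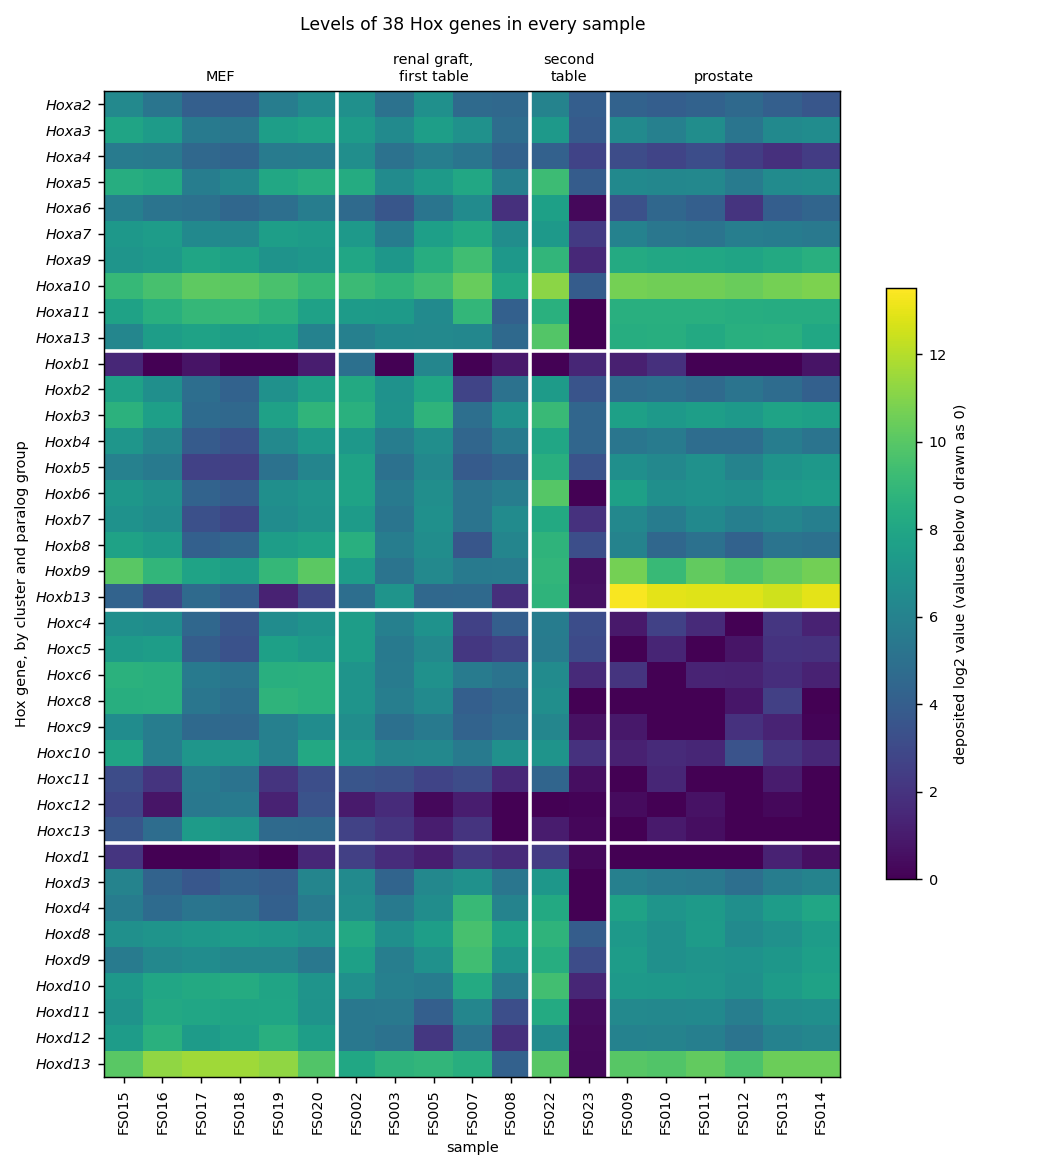
Deposited log2 values of 38 Hox genes (rows, by cluster and paralog group) in all 19 samples (columns, by group), where lighter colors are higher and values below 0 are drawn as 0. The HoxC block is dark in the 6 prostate samples, Hoxb13 is brightest there, and FS023 is dark over most rows.

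To ask which Hox genes were higher or lower than in fibroblasts, the 5 iEpt+NAF grafts were compared with the MEFs over 16121 genes. Here 1 of 38 Hox genes tested was higher and 8 were lower, or 23.7% called against 41.9% of all genes (29.9% higher and 12% lower). The median difference was -0.39 over the Hox genes and 0.262 over all genes. By the exact permutation test 12 of 38 had an unadjusted p under 0.05, against 68.3% of all genes, and 6 an adjusted p under 0.05, against 63.9%. The groups did not overlap in 0 higher and 5 lower Hox genes, against 28.4% and 18.9% of all genes tested. In bulk tissue, fewer cells that express a gene and less RNA of it per cell cannot be told apart. The methods do not say whether the sequenced MEF samples were the cultures that gave these grafts.

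All 8 lower genes had paralog numbers from 9 to 13, namely Hoxa13, Hoxb9, Hoxc12, Hoxc13, Hoxd10, Hoxd11, Hoxd12 and Hoxd13. Of the 6 genes of paralog groups 12 and 13, 5 were called lower and Hoxb13 was not called, whereas none of the 22 tested genes of paralog groups 1 to 8 was called lower. Hoxd12 had graft values of 5.43, 5.11, 2.19, 5.17 and 1.86, with FS008 at the floor, and lay -3.93 (SE 0.69, limma adjusted p = 4.58e-04) below the MEFs. Hoxd11 stood at 4.87 ± 1.18 (SD, n = 5) against 7.63 ± 0.56 (SD, n = 6), a difference of -2.76 (SE 0.50, limma adjusted p = 6.01e-04). Hoxb9 had graft values of 7.47, 5.18, 6.37, 5.56 and 5.64, all below the lowest MEF value of 7.54, and differed by -2.85 (SE 0.55, limma adjusted p = 9.05e-04). Those 3 genes, Hoxc13 and Hoxd13 kept their calls when any 1 sample was left out and with MEF pair means.

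The calls of Hoxc12, Hoxd10 and Hoxa13 rested on fewer samples. Hoxc12, with all 5 grafts at the floor, lost its call without FS002, FS005, FS008, FS015, FS017, FS018 or FS020 (adjusted p from 0.0521 to 0.0794). Hoxd10, at 6.44 ± 1.12 (SD, n = 5) in the grafts and 7.77 ± 0.54 (SD, n = 6) in the MEFs, lost its call without FS003, FS005, FS008, FS016, FS017 or FS018 (adjusted p from 0.0531 to 0.069). Neither was called with MEF pair means, under which 5 genes were called in all.

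Hoxd4 was the 1 gene called higher, at 6.67, 5.53, 6.62, 9.12 and 6.01 in the grafts, 1.71 (SE 0.58, limma adjusted p = 0.0214) above the MEFs, a difference that turned to -0.37 after quantile normalization. The call was lost with MEF pair means (limma adjusted p = 0.101) and without FS017 and FS018 (limma adjusted p = 0.0575). FS007 was the highest graft, and its other HoxD genes from Hoxd8 to Hoxd10 were also the highest of the 5, at 9.57, 9.34 and 8.25. Hoxa9, the HoxA gene with the highest difference, had graft values of 7.97, 7.15, 8.39, 9.38 and 7.21 and MEF values of 6.94, 7.22 and 7.94, and was not called (0.69, SE 0.38, limma adjusted p = 0.13). Hoxa11, a gene of the forearm and of the uterus, had graft values of 7.43, 7.37, 6.43, 8.96 and 4.13 and was not called either (-1.58, SE 0.69, limma adjusted p = 0.0616), but was called without FS007 at -2.11 (adjusted p = 0.0108). Hoxc9 had the difference nearest 0 of its cluster at -0.41 (SE 0.51, limma adjusted p = 0.494), from graft values of 6.62, 4.98, 5.52, 4.32 and 4.78 and MEF values of 4.58, 5.79 and 6.59.

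Hoxb1, which is confined to a narrow band of the hindbrain in the embryo, was found in 2 grafts. FS002 held it at 4.97 and FS005 at 6.19, while FS003, FS007 and FS008 stood at -0.40, -1.23 and 0.94, all at the floor as were all MEF and prostate samples. The difference from the MEFs of 1.90 (SE 1.35) was not called (limma adjusted p = 0.233). Summed over 8 neural markers, the log2 level was 14.3 in FS002, 14.8 in FS003 and 13.3 in FS005 against 8.36 in FS007 and 9.34 in FS008, and the part of neural tissue in the Hoxb1 level was not tested.

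Markers of other tissues moved with the grafts, beside 29.9% of all genes called higher than in the MEFs and 12% called lower. All 12 kidney markers were called higher in the grafts than in the MEFs, and their summed log2 level ran from 10.44 in FS003 to 17.4 in FS005, against 7.45 to 8.51 in the MEFs. All 8 skeletal muscle markers and 5 of 8 neural markers were called higher, and the seminal vesicle sum reached 14.25 in FS005. The 9 epithelial markers were all called higher, with sums of 14.57 to 15.92 against 6.03 to 8.76 in the MEFs, and 8 of 10 fibroblast markers were called lower. The part of these tissues in the Hox levels was not tested. With FS003 and FS007 alone, which had the lowest kidney sums, 5 Hox genes were called lower and 0 higher, and with FS007 and FS008 alone, which had the lowest neural sums, 8 were called lower and 3 higher. Under quantile normalization the median of all genes moved from 0.262 to -0.141 and 22 Hox genes were called lower and 0 higher.

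**Figure D3:**
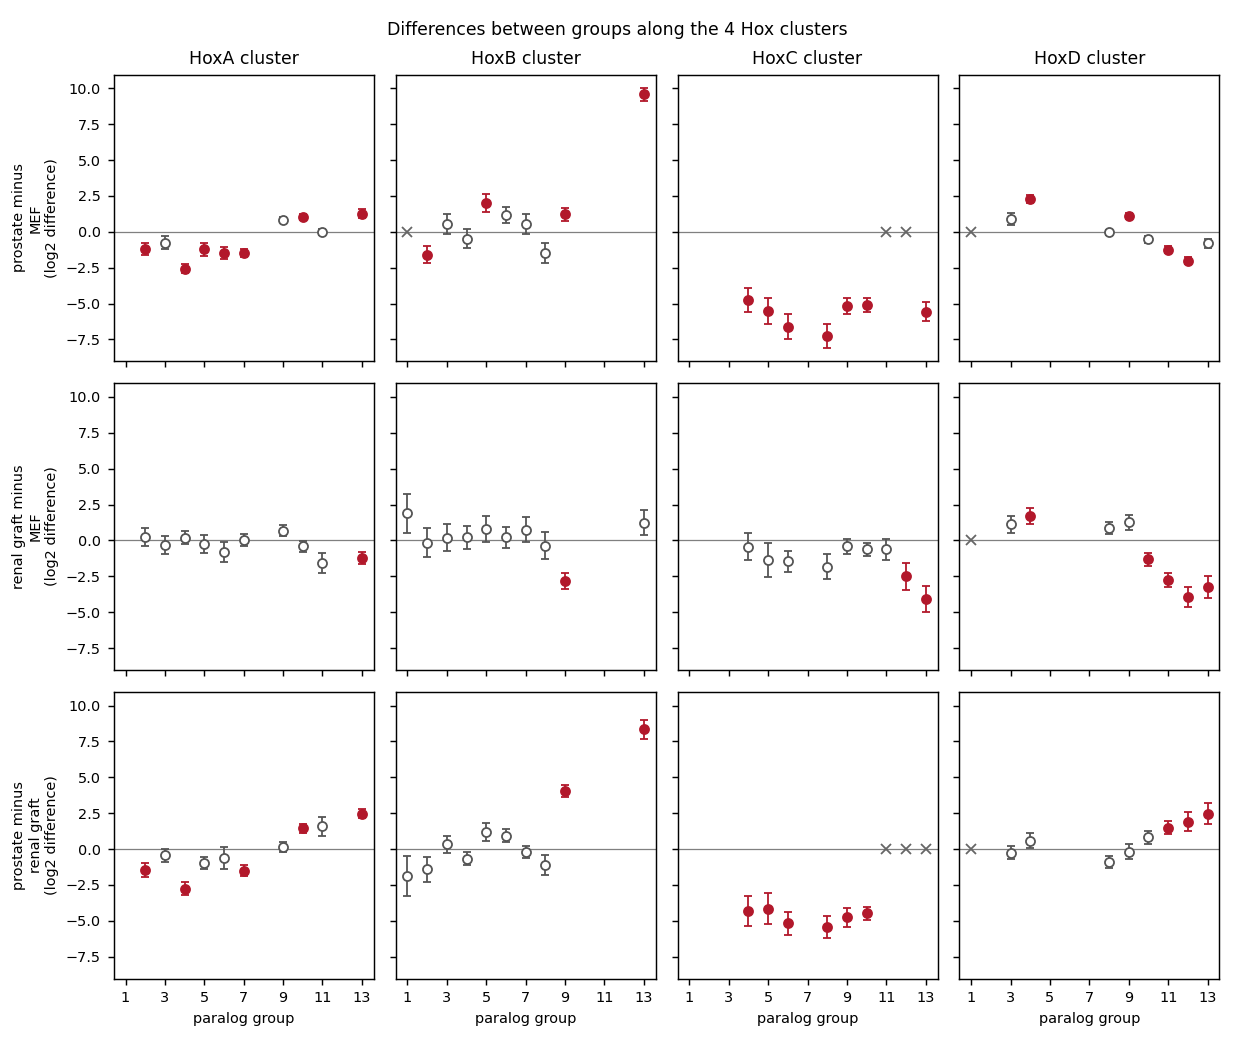
Log2 difference between groups (y axis, points with SE bars) for 38 Hox genes by paralog group (x axis) in the 4 clusters (columns) and 3 comparisons (rows). Filled red points passed the call, open points did not, and crosses on the 0 line are genes too low to test; in the middle row the filled points lie at paralog 9 and above except Hoxd4, whose difference of 1.71 turns to -0.37 after quantile normalization.

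Prostate and iEpt+NAF grafts, the same samples as in the comparisons above, were then set against each other directly over 16353 genes. Of 35 Hox genes tested, 7 were higher and 10 lower in the prostate, or 48.6% called against 33.3% of all genes (10.3% higher and 23% lower). After quantile normalization 11 were higher and 8 lower. The median difference was -0.44, against -0.11 over all genes, and 19 of 35 had an unadjusted exact permutation p under 0.05 against 61.0% of all genes, and 18 an adjusted p under 0.05 against 55.1%. The groups did not overlap in 5 higher and 8 lower Hox genes, against 17.3% and 19.8% of all genes tested. The 7 higher genes were Hoxa10, Hoxa13, Hoxb9, Hoxb13, Hoxd11, Hoxd12 and Hoxd13, all of paralog group 9 or above. They included 4 of the 6 genes of paralog groups 12 and 13. The others, Hoxc12 and Hoxc13, were too low in both groups to be tested. Their means were -0.34 and -0.20 in the prostate and 0.71 and 1.28 in the grafts. The call of Hoxd12 at 1.92 was lost in 7 of 11 fits that left out 1 sample, those without FS005, FS008, FS009, FS010, FS011, FS013 or FS014 (adjusted p from 0.0527 to 0.0748).

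The 10 lower genes included Hoxa2, Hoxa4 and Hoxa7 and the 6 HoxC genes tested, Hoxc4, Hoxc5, Hoxc6, Hoxc8, Hoxc9 and Hoxc10. Those 6 could pass the filter only through their graft levels, so their shared direction was largely fixed in advance. Of the 9 HoxC genes, 6 to 8 were above the floor in each graft, while Hoxc12 was at the floor in all 5 grafts as in the prostate. Hoxc8 had graft values of 6.99, 5.79, 6.48, 4.06 and 4.53 and differed by -5.43 (SE 0.78, limma adjusted p = 1.57e-04). The size of that difference is imprecise, as 1 of 6 prostate values of Hoxc8 was above the floor. Hoxc5 had graft values of 7.54, 5.50, 6.36, 2.19 and 2.64 and prostate values of -1.42, 1.09 and 1.95 at the lowest, median and highest, all 6 at the floor, and the grafts were on average at least 2.50 higher. With FS007 and FS008 alone, which held Hoxc5 lowest, the limma difference was -1.74 and no longer called (adjusted p = 0.169), nor was it with FS003 and FS007 alone (-3.16, adjusted p = 0.0618). Hoxa2 lost its call without FS002, FS005 or FS014 (limma adjusted p from 0.0508 to 0.0611). After quantile normalization Hoxa2 was at -0.11 and Hoxa7 at -0.45, neither called (limma adjusted p = 0.832 and 0.513).

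No gene from Hoxb1 to Hoxb8 was called between prostate and grafts. Hoxb2, Hoxb4 and Hoxb8 were called without FS007, and Hoxb5 and Hoxb6 without FS002 and after quantile normalization (2.15 and 1.8 higher in the prostate). Hoxb1 had the lowest difference of that cluster at -1.85 (SE 1.39, limma adjusted p = 0.273), which rested on FS002 and FS005. Hoxb9, by contrast, was higher in the prostate by 4.07 (SE 0.41, limma adjusted p = 1.28e-05), with prostate values of 9.12, 10.25 and 10.66 at the lowest, median and highest against at most 7.47 in a graft. Hoxd8 had graft values of 8.15, 6.74, 7.55, 9.57 and 7.79 and prostate values of 6.46, 7.06 and 7.45, the lowest difference of HoxD at -0.93 (SE 0.42, limma adjusted p = 0.0783). It was called at -1.23 without FS003 (adjusted p = 0.0179). The smooth muscle markers, a large part of prostate stroma, were higher in the prostate for 5 of 6, against 10.3% of all genes. Their summed log2 levels were 16.58 to 17.26 against 12.47 to 14.66 in the grafts, and their part in the Hox differences was not tested.

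The MEF pairs differed from each other in the Hox genes far more than the samples within a pair did. Over the 39 genes, FS017 and FS018 were both above the other 4 MEF samples in 9 and both below them in 18, against 26.0% and 25.2% of the 13172 genes with a MEF mean above log2 of 10. The pairs were found from all genes, so these counts describe the samples and were not tested. The genes above were Hoxa9, Hoxa10, Hoxa11, Hoxc11, Hoxc12, Hoxc13, Hoxd8, Hoxd10 and Hoxd13, all of paralog number 8 or more. The genes below were Hoxa2 to Hoxa5, Hoxa7, all 8 genes from Hoxb2 to Hoxb9, and Hoxc4, Hoxc5, Hoxc6, Hoxc8 and Hoxc9, all of paralog number 9 or less.

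Hoxb7 had a mean of 6.90 in FS015 and FS020, 6.56 in FS016 and FS019 and 3.06 in FS017 and FS018, while samples within a pair differed by at most 0.47. Hoxc5 showed the largest gap, with FS017 and FS018 on average 3.75 below the mean of the other pairs. Hoxc12 was at 5.47 in FS017 and FS018, 3.14 in FS015 and FS020 and 1.03, at the floor, in FS016 and FS019. Hoxd12 went with neither set, highest in FS016 and FS019, with pair means of 7.53, 8.56 and 7.57. Tbx4 and Pitx1, which mark the hindlimb, had pair means of 7.34, 8.59 and 9.81 and of 7.07, 7.44 and 8.72, highest in FS017 and FS018, while Tbx5, which marks the forelimb, had means of 7.83, 8.44 and 8.17. The labels name neither a limb nor a pool for these samples.

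**Figure D4:**
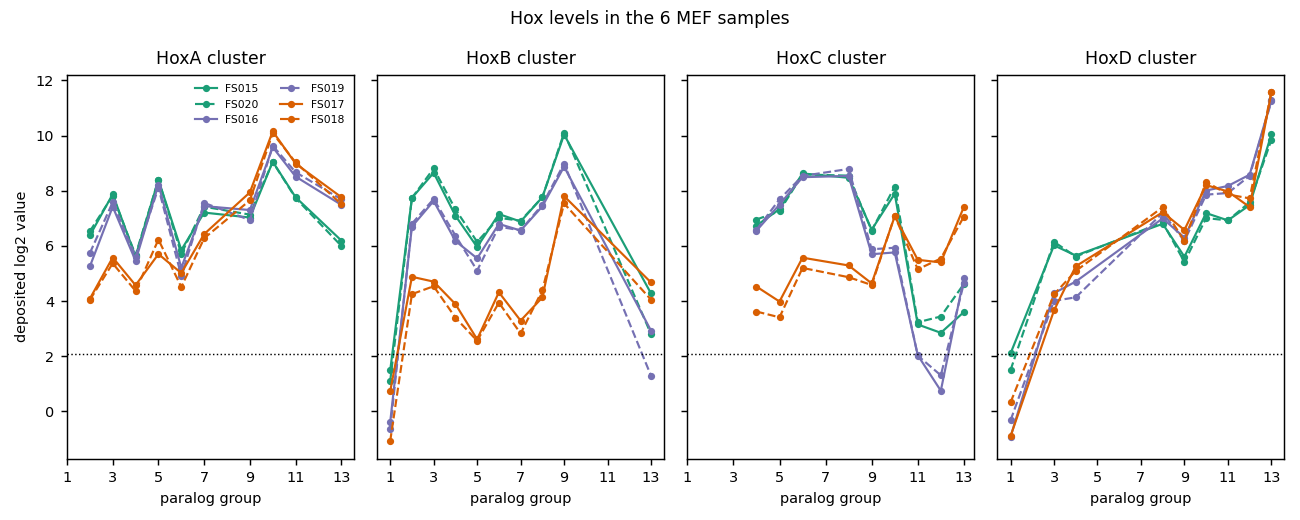
Deposited log2 values of the Hox genes in the 6 MEF samples (1 line each, samples of a pair in 1 color) by paralog group in each cluster, with a dotted line at the highest value that 3 reads give. The 2 lines of each pair lie close together at most genes, with the largest gap, 1.81, at Hoxb1. FS017 and FS018 lie lowest from Hoxb2 to Hoxb9 and highest at Hoxc11 to Hoxc13.

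The pairs bore on the graft comparison more than on the prostate comparison. Without FS017 and FS018, 25 Hox genes were called between prostate and MEF, of which 21 were among the 23, with Hoxb5 and Hoxb9 lost and Hoxa3, Hoxa9, Hoxb4 and Hoxb8 gained. For grafts against MEFs 7 were called, all lower, of which 5 were among the 9. Hoxa13, Hoxc12, Hoxd10 and Hoxd4 were lost and Hoxc6 and Hoxc8 gained. With FS019 and FS020 alone, where 2 and 1 of the 6 prostate secretory genes were above the floor and Tgm4 stood at 0.0448 and 0.0398% of its prostate mean, 26 Hox genes were called between prostate and MEF and 4 between grafts and MEFs, of which Hoxb9 and Hoxd12 were among the 9.

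The grafts also differed from each other. FS008 had the lowest median over the 39 Hox genes of the 5, at 4.78, against 7.06 in FS002, and 31 genes above the floor against 36 to 38 in the others. It was the lowest graft in Hoxa2 to Hoxa6, Hoxa10, Hoxa11, Hoxa13, Hoxb13, Hoxc6, Hoxc11 to Hoxc13 and Hoxd10 to Hoxd13. FS007 combined the lowest HoxC median of the 5, 3.16, with the highest HoxD median, 8.25, where the other 4 grafts had HoxC medians of 4.11 to 6.99 and HoxD medians of 5.31 to 6.67. FS002 had the highest values of Hoxb2, Hoxb5, Hoxb6 and Hoxb8, at 8.21, 7.78, 7.82 and 8.52.

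FS022 and FS023 were normalized in a table of their own and are given as deposited, with no test. Over 10188 genes well above the floor, their median differences from the mean of the first table were -0.10 and -0.14. These medians describe the shift in scale and not the agreement of single genes. FS022 had 35 of 39 above the floor with a median of 7.69, FS023 had 15 with a median of 1.58. Hoxb13 was 8.80 in FS022, above all 5 iEpt+NAF grafts and 5.67% of the prostate mean, and 0.62 in FS023, at the floor. Hoxa13 was 9.89 in FS022, above every other sample of the study, and Hoxd13 was 9.99, within the prostate range, while FS023 was at the floor for both, at -1.04 and 0.29.

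Unlike the prostate, FS022 kept 7 of 9 HoxC genes above the floor, with Hoxc8 at 6.69 and Hoxc10 at 7.0. FS022 also had a seminal vesicle sum of 13.9, with Svs4 at 12.03, and a smooth muscle sum of 18.1, with Myh11, the smooth muscle myosin heavy chain, at 17.06. Its prostate secretory genes Pbsn and Sbp were at 0.00145% and 3.44e-08% of their prostate means, and Tgm4 at 1.74%. FS023 had the highest neural sum of all samples, 17.04, with the glial gene Gfap at 16.08, and its detected Hox genes included Hoxa2 at 4.03, Hoxb3 at 4.44 and Hoxb4 at 4.46, all of low paralog number, beside Hoxa10 at 3.94 and Hoxd8 at 3.98. Those tissues' part in the Hox levels was not tested.

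Compared between genes per kb of exon, on the log2 scale, Hoxb13 was the highest Hox gene of the prostate at 11.77, followed by Hoxd13 at 8.81, Hoxb9 at 8.75 and Hoxa10 at 8.69, which lay closer to each other than their SDs. Hoxa13 was the fifth at 7.06. In the MEFs the order began with Hoxd13 at 9.61, Hoxa10 at 7.65, Hoxb9 at 7.53 and Hoxa11 at 7.02, and Hoxb13 was rank 36 of 39. There Hoxa10 and Hoxb9 lay closer to each other than their SDs, as did Hoxb9 and Hoxa11. In the grafts Hoxa10 led at 7.24, with Hoxd8 at 6.50, Hoxd13 at 6.35 and Hoxa5 at 6.32, and Hoxb13 was rank 29. Neighbours in that order, Hoxa10 and Hoxd8 included, lay closer to each other than their SDs. In GENCODE M1, 18 of the 39 genes share exon bases with another annotated gene, 8 of them with a gene on the opposite strand, and the library kit did not mark strand. Hoxa2 with Hoxa3, Hoxb7 with Hoxb8 and Hoxd3 with Hoxd4 share exon bases with each other, so the levels within these pairs are uncertain.

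Hox proteins bind DNA together with TALE homeodomain cofactors of the Pbx, Meis and Pknox families. Of 9 cofactors, all tested, 2 were higher and 3 lower in the prostate than in the MEFs, 0 higher and 1 lower in the grafts than in the MEFs, and 1 higher and 2 lower in the prostate than in the grafts. Over all genes 48.3, 41.9 and 33.3% were called in these comparisons. Pbx3 was lower in the prostate than in the MEFs by -3.46 (SE 0.21, limma adjusted p = 4.91e-09) and than in the grafts by -2.71 (SE 0.35, limma adjusted p = 7.05e-05). Pknox2 was higher in the prostate, by 1.74 and 2.12 (limma adjusted p = 1.18e-04 and 3.14e-04). Pbx4 was lower in both comparisons, by -1.61 and -1.78 (limma adjusted p = 0.00401 and 0.0469).

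Among 10 upstream regulators of axial position, 4 were higher and 2 lower in the grafts than in the MEFs, of 9 tested, against 29.9% and 12% of all genes. Cdx1 and Cdx2, which switch on posterior Hox genes in the embryo and are kept in gut epithelium, were at the floor in all 6 MEFs, and the graft means were at least 3.20 and 2.12 higher (limma adjusted p = 0.0152 and 0.0256). Cyp26a1, which degrades retinoic acid, was also at the floor in the MEFs, and the grafts were at least 2.46 higher (limma adjusted p = 0.00157). Cdx1 stood at 4.81, 9.52, 9.39, 1.26 and 1.41 and Cdx2 at 3.96, 9.07, 8.33, -0.43 and 0.07 in FS002, FS003, FS005, FS007 and FS008, the last 2 at the floor. In the prostate 1 of 6 tested was higher and 4 lower than in the MEFs, against 27.8% and 20.5% of all genes. Aldh1a2, which makes retinoic acid, was higher by 3.85 (limma adjusted p = 1.8e-04), while Gdf11 and Cyp26b1 were lower by -3.92 and -3.87 (limma adjusted p = 1.35e-07 and 1.37e-08). Against the grafts, 1 of 9 was higher and 5 were lower in the prostate, where 10.3% and 23% of all genes were. The lower genes were led by Cdx1, with the grafts at least 2.94 higher, and by Cyp26a1 and Cyp26b1 at -3.44 and -2.48.

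The proteins that hold Hox genes off or on were followed in the same way. Of 19 Polycomb subunits, 6 were higher and 3 lower in the prostate than in the MEFs, 3 higher and 0 lower in the grafts than in the MEFs, and 2 higher and 1 lower in the prostate than in the grafts, against 48.3, 41.9 and 33.3% of all genes called, so the count of 9 of 19 in the first is near the background. Cbx7, Ezh1 and Jarid2 led in both comparisons with the MEFs, which share the MEF samples. They were higher by 4.57, 2.12 and 1.84 in the prostate and by 3.91, 1.63 and 1.68 in the grafts. Between prostate and grafts Phc3 was higher in the prostate by 1.83 and Phc1 lower at -1.64. The list of Trithorax subunits also held other chromatin regulators, Dot1l among them, and 10 of its genes were tested. Dot1l was lower in the prostate than in the MEFs at -1.05, and was the only gene of the list called there. Ash1l and Mll1 were lower in the grafts than in the MEFs at -1.24 and -1.13. Between prostate and grafts 0 of 10 were called by limma, where 8 had an unadjusted p under 0.05.

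All 11 genes of limb position were lower in the prostate than in the MEFs, and 7 of 11 were lower in the grafts, against 20.5% and 12% of all genes. Fibroblast markers were lower beside them, 7 of 10 in the prostate and 8 of 10 in the grafts, and their part was not tested. Shox2 and Lmx1b were at the floor in all 6 prostate samples, so that the MEFs were at least 4.93 and 3.72 higher, and En1 differed by -5.10 (SE 0.39, limma adjusted p = 5.13e-08). In the grafts Prrx1, Shox2 and Gli3 were lower by -4.63, -4.06 and -3.90. Pitx1 was lower in the prostate than in the grafts at -4.72 (SE 0.59, limma adjusted p = 5.55e-05), with graft values of 9.45, 9.86, 7.12, 10.43 and 7.95 against prostate values of 3.28 to 5.04.

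Other transcripts of the clusters were also called between the groups. Of 18 listed, 8 were matched by symbol in the tables, and 4 of the 5 tested were higher in the prostate than in the MEFs, 4 of 5 higher than in the grafts, and 1 of 3 lower in the grafts than in the MEFs. Over all genes 27.8, 10.3 and 12% were called in these directions. Evx1, which lies beside Hoxa13 and acts in the spinal cord and at the tail end, had prostate values of 4.06 to 5.15 and MEF values at the floor, so that the prostate was at least 2.50 higher (limma adjusted p = 1.55e-05). Hoxa11as, an antisense transcript that shares 646 exon bases with Hoxa11, was 12.10 on average in the prostate against 8.12 in the MEFs and 7.27 in the grafts. Hoxa11 itself did not follow, at 8.44 in the prostate and 8.45 in the MEFs, and without strand the reads of their shared bases cannot be told apart. Evx2, beside Hoxd13, was lower in the grafts than in the MEFs at -2.40 (SE 0.62, limma adjusted p = 0.00523).

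The rows of Mir196a-1, near Hoxb9, and Mir196b, near Hoxa9, were among those higher in the prostate. These rows count reads of longer polyadenylated RNA over the hairpins, and the Mir196b row shares 85 exon bases with Hoxa9, so they do not measure mature miRNA. Mir196a-1 had prostate values of 6.39 to 7.27, MEF values of 2.68 to 4.09 and graft values of 3.07, 1.95, 2.78, 3.77 and 3.23, and was higher in the prostate than in the MEFs by 3.36 (SE 0.27, limma adjusted p = 7.32e-08). Mir196b had prostate values of 5.17 to 6.18 and MEF values of at most 2.60, a difference of 4.18 (SE 0.53, limma adjusted p = 7.42e-06). miR-196 is known to silence Hox genes, with Hoxb8 as its textbook target. The mature sequences (RefSeq, GRCm38.p6) are shown with the seed, bases 2 to 8, in capitals, and the Hoxb8 site with capitals for bases that equal the reverse complement of miR-196a-5p:
miR-196a-5p: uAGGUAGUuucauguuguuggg
miR-196b-5p: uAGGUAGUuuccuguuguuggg
Hoxb8 site: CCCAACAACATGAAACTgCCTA
The seeds are the same, the miRNAs differ at 1 base outside it, and 21 of 22 bases of the Hoxb8 site match, at chr11:96146202-96146223 (mm9, plus strand) in the 3′ untranslated region. The exact seed match, actacct on the transcript strand, occurs in 9 of 39 Hox 3′ untranslated regions (23.1%), among them Hoxa7, Hoxb7 and Hoxc8, and in 5.73% of those of all 19913 genes, with median lengths of 1117 and 893 bases. Hoxb8 stood at 5.01 ± 0.61 (SD, n = 6) in the prostate and 6.49 ± 1.74 (SD, n = 6) in the MEFs, which was not called (-1.48, SE 0.68, limma adjusted p = 0.0597).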

How the data were processed

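Per the labels, TruSeq RNA v2 libraries, which do not mark strand, were sequenced and processed by the authors with bcl2fastq 1.8.4, TopHat, Cufflinks and DESeq on mm9. The authors deposited log2 values after a DESeq-type variance stabilization, in 2 separately normalized tables of 23284 genes. Between 11.5 and 15 these equal whole reads (tolerance 0.05 reads), while lower values carry added scatter, so counts were not recovered, no count model was run, and depth was estimated from the size of 1 read.

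Groups came from the labels. Genes whose linear values averaged 10 or more in the groups compared were tested with limma 3.58.1 (trend, Benjamini-Hochberg adjustment over all genes tested) in R 4.3.3, on the first table alone, and checked on simulated data. Hox genes named in full were, per cluster and comparison, those with the highest and lowest difference, plus the paralog 13 genes. The 39 Hox genes and all gene lists were chosen with earlier results of these data known. Alternatives changed the filter, pseudocount, normalization, fit and samples used, and those on MEF pairs and subsets of grafts were chosen after seeing the data. The labels do not say that samples came from separate animals or cultures, so p-values measure the spread between these samples. Coordinates and exon lengths are from GENCODE M1 on mm9. Some items are not reported here.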

Additional observations from a re-analysis of the deposited data

Results flagged for a closer look

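Hoxd13 in the renal graft FS008 stood far from the other grafts, at 4.19 against 8.05 to 8.86 in FS002, FS003, FS005 and FS007. It was the 1 value so far from its group among 101 sets of 5 or 6 samples examined, where chance alone would give about 5.05. In the same library Hoxa11 was 4.13, Hoxa13 4.60 and Hoxb13 1.8, each the lowest of the 5 grafts, as were Hox genes of low paralog number, Hoxa2 to Hoxa6. The kidney marker sum of FS008, 17.3, was close to the highest, 17.4 in FS005, where Hoxd13 stood at 8.86. The part of kidney tissue in the Hox levels of FS008 was not tested.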

How the results depend on the processing

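No paired analysis was possible because the labels give the samples no replicate numbers. Leaving out 1 sample at a time gave 22 to 24 called Hox genes between prostate and MEF (6 to 8 higher, 14 to 18 lower), 7 to 11 between grafts and MEF (1 to 4 higher, 5 to 9 lower), and 15 to 23 between prostate and grafts (6 to 10 higher, 9 to 13 lower). The 4 higher came without FS003, and 2 higher and 5 lower without FS008. With a linear mean of at least 50, which leaves fewer genes tested, 9 were lower between prostate and MEF, and 7 were called between prostate and grafts, 1 of them lower.

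For grafts against MEF, quantile normalization called 22 (0 higher, 22 lower), 1 fit of all 3 groups called 2 higher, FS019 and FS020 as the only MEF samples gave 4 (0 higher, 4 lower), and MEF pair means gave 5 (0 higher, 5 lower). Without FS017 and FS018, 0 were higher. Using FS003 and FS007 alone gave 5 (0 higher, 5 lower), and FS007 and FS008 alone gave 3 higher. For prostate against grafts, quantile normalization called 11 higher, and FS003 and FS007 alone gave 6 lower.

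Of the Hox genes named in full, 8 values changed sign, none of them called in the alternative. In grafts against MEF these were Hoxa9 (-0.23), Hoxd4 (-0.37) and Hoxb13 (-1.0) under quantile normalization, Hoxb1 (-1.01) with FS003 and FS007 alone, and Hoxb1 (-0.35) and Hoxb13 (-0.13) with FS007 and FS008 alone. In prostate against grafts Hoxb1 turned to 1.06 and 0.39 with those 2 sets of grafts. The causes were not tested. Values near the floor of 3 reads, most of HoxC in the prostate, carry little precision, and counting intervals were not computed for them.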
